A study of Homo sapiens with 6 samples.

Results

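Translation elongation is the stage of protein synthesis in which the ribosome adds amino acids to the growing chain. The GTPase eEF1A brings each aminoacyl-tRNA to the ribosome, the eEF1B complex recharges eEF1A with GTP, and eEF2 moves the ribosome along the mRNA by a codon. eEF1A has a pair of paralogs. EEF1A1 is used by most cells, whereas EEF1A2 is the form of adult muscle, heart and neurons and is known to be raised in a share of breast and ovarian cancers. eEF2 kinase phosphorylates eEF2 and thereby slows elongation.

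The 8 genes described are EEF1A1, EEF1A2, the eEF1B subunit genes EEF1B2, EEF1D and EEF1G, the related gene EEF1E1, EEF2 and EEF2K, out of 54644 gene rows. They were chosen by name, and the group was selected on the higher level of EEF1A2 in cortactin-overexpressing cells, so the values of EEF1A2 in that contrast are a description and carry no test. The other 7 genes were not chosen for their own change and were tested.

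RNA-seq was performed on SKBR3, an established HER2-amplified breast adenocarcinoma cell line, with 3 libraries of cells infected with the empty lentiviral vector pLVX (CON) and 3 libraries of cells infected with pLVX-CTTN (CTTN), which encodes the actin-binding protein cortactin. Both groups had gone through puromycin selection, and whether each stable line came from 1 clone or a pool of cells is not stated in the sources used here. The design names 3 biological replicates per condition, and 1 label speaks of tumors of the stable lines where the design text speaks of cells. The control columns carry numbers that differ by 1 between GEO's labels and the deposited sample table, so control libraries are numbered as that table does and the numbers identify no sample.

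Each library held 34887079 to 41279658 fragments assigned to genes. CTTN itself was at 299, 307 and 306 CPM (fragment counts scaled by library size with TMM factors, not by length) in CON 1, 2 and 3, and at 793, 1011 and 520 in CTTN 1, 2 and 3. The log2 fold change of CTTN was 1.35 ± 0.22 (SE, edgeR quasi-likelihood test, Benjamini-Hochberg adjusted p = 0.0248), and the adjusted p was 0.121 to 0.154 when CTTN 1 or any 1 control library was left out. Of the SKBR3 markers, ERBB2, the amplified receptor gene, stood between 1644 and 1790 FPKM, the fragment count scaled by transcript length and library size, 7 of 8 markers had a mean of at least 1 FPKM, and CDH1 was at 0.117. The skeletal muscle and neuron markers MYH1, MYH2, STMN2 and GAP43 were listed at 0 in every library. Of the 8 muscle and 8 neuron markers, 1 and 2 reached a mean of 1 FPKM, namely MB at 56.3, SYT1 at 1.24 and a merged row that holds TUBB3 and 4 other genes. The summed level of the muscle list was 54.4 to 58.3 FPKM in CON and 42 to 72.6 in CTTN, and that of the neuron list was 73.3 to 74.9 and 76.8 to 94.1, most of it from the merged TUBB3 row. The 4 neuron rows tested had a median log2 fold change of -0.31, and 0 passed with all libraries. Of them 1 had an unadjusted edgeR p under 0.05 and DESeq2 called 1 after adjustment, beside 30.2% and 14.4% of all genes. MAP2, at a mean of 0.627 FPKM, had a log2 fold change of -0.90 (edgeR adjusted p = 0.0654, and 0.00279 without CTTN 2). Of the fibroblast and endothelial markers, 1 each (COL1A1 and CDH5) reached 1 FPKM, with summed levels of 3.51 to 4.44 and 4.2 to 4.65 FPKM in CON and 2.94 to 4.3 and 1.55 to 2.19 in CTTN. CDH5, the endothelial cadherin gene, fell from 15.4, 16.8 and 15.2 CPM in CON to 5.28, 7.13 and 4.43 in CTTN (log2 fold change -1.49 ± 0.17, edgeR adjusted p = 0.00843, and 0.0616 to 0.0835 without CTTN 1 or any 1 control library), while PECAM1 and KDR had means of 0.0126 and 0.0286 FPKM. Its part in the results was not tested. As with all bulk libraries, more cells expressing a gene and more RNA per cell cannot be told apart.

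The CTTN libraries differed from each other by transcript length. Relative to the mean of CON, the median log2 ratio of the 3383 tested genes with a main transcript above 1000 and up to 2000 bases was 0.17 in CTTN 1, 0.01 in CTTN 2 and 0.33 in CTTN 3. For the 2949 genes above 4000 and up to 8000 bases it was -0.22, -0.01 and -0.45. Short transcripts were thus higher and long transcripts lower in CTTN 1 and CTTN 3 alone, and values with this trend taken out of each library by a smooth fit on transcript length, or with a library left out, are given beside the members and most genes named from the lists of the translation machinery. For 3 of the markers named above, ERBB2 (0.24, edgeR adjusted p = 0.0288), MB (-0.30, adjusted p = 0.0301) and MAP2 (-0.65, adjusted p = 0.0217), the fit with the trend removed made a call that the fit of all libraries (0.05, -0.03 and -0.90) did not. Of the 8 SKBR3 markers, 2 rose in the fit with the trend removed, ERBB2 and KRT19 (0.24, edgeR adjusted p = 0.0482). KRT18 fell in it (-0.37, edgeR adjusted p = 0.00972), beside 8.66% of all genes that rose and 7.38% that fell. In the fit of all libraries, 350 of 14409 genes (2.43%) rose and 293 (2.03%) fell at an adjusted p under 0.05. Over the same genes 30.2% had an unadjusted p under 0.05, and DESeq2 called 14.4% after adjustment, and counts of that kind below are to be read against these shares.

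The sequences of the eEF1A paralogs matter first, since a short read could belong to either gene and EEF1A1 RNA is far more abundant. Both coding regions are split into 7 exons, and the first coding exon is 144 bases long in each. It is printed here from the GENCODE transcripts ENST00000331523 (EEF1A1) and ENST00000217182 (EEF1A2), 5′ to 3′ from the start codon, with the 25 bases that differ in capitals.
EEF1A1: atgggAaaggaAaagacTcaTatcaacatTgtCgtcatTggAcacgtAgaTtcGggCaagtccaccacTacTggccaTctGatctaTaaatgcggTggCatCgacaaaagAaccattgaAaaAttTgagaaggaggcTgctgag
EEF1A2: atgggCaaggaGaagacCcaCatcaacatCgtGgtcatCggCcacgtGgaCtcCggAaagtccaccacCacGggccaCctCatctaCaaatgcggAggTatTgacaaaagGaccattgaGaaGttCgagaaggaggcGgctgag
Across coding exons 1 to 6, 991 of 1264 bases (78.4%) were identical, and 227 of the 273 differing bases (83.2%) fell on the last base of a codon. The longest identical run was 20 bases. None of the 5123 different 50-base stretches of the EEF1A2 transcripts occurred in an EEF1A1 transcript, so a read matching EEF1A2 exactly over 50 bases had no exact match in EEF1A1. The last bases of codons were G or C in 89.2% of EEF1A2 codons and in 48.3% of EEF1A1 codons.

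EEF1A2, on chromosome 20 (chr20:63488014-63499083, RefSeq GRCh38.p14), was low in control cells and higher in every cortactin-overexpressing library. It had 109, 126 and 109 fragments in CON 1, 2 and 3, and 386, 364 and 405 in CTTN 1, 2 and 3. In CPM these were 3.08, 3.00 and 2.84 against 10.9, 9.68 and 12.3. The groups did not overlap, and in 19.4% of all genes tested every CTTN library likewise lay above every CON library. The log2 fold change was 1.88 ± 0.13 (SE), a 3.68-fold higher level. Over 15 other fits it ranged from 1.49, on the log2(FPKM + 1) scale, to 1.95. With the length trend removed it was 1.76, and it was 1.95 without CTTN 2 and 1.79 without CTTN 3.

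**Figure D1:**
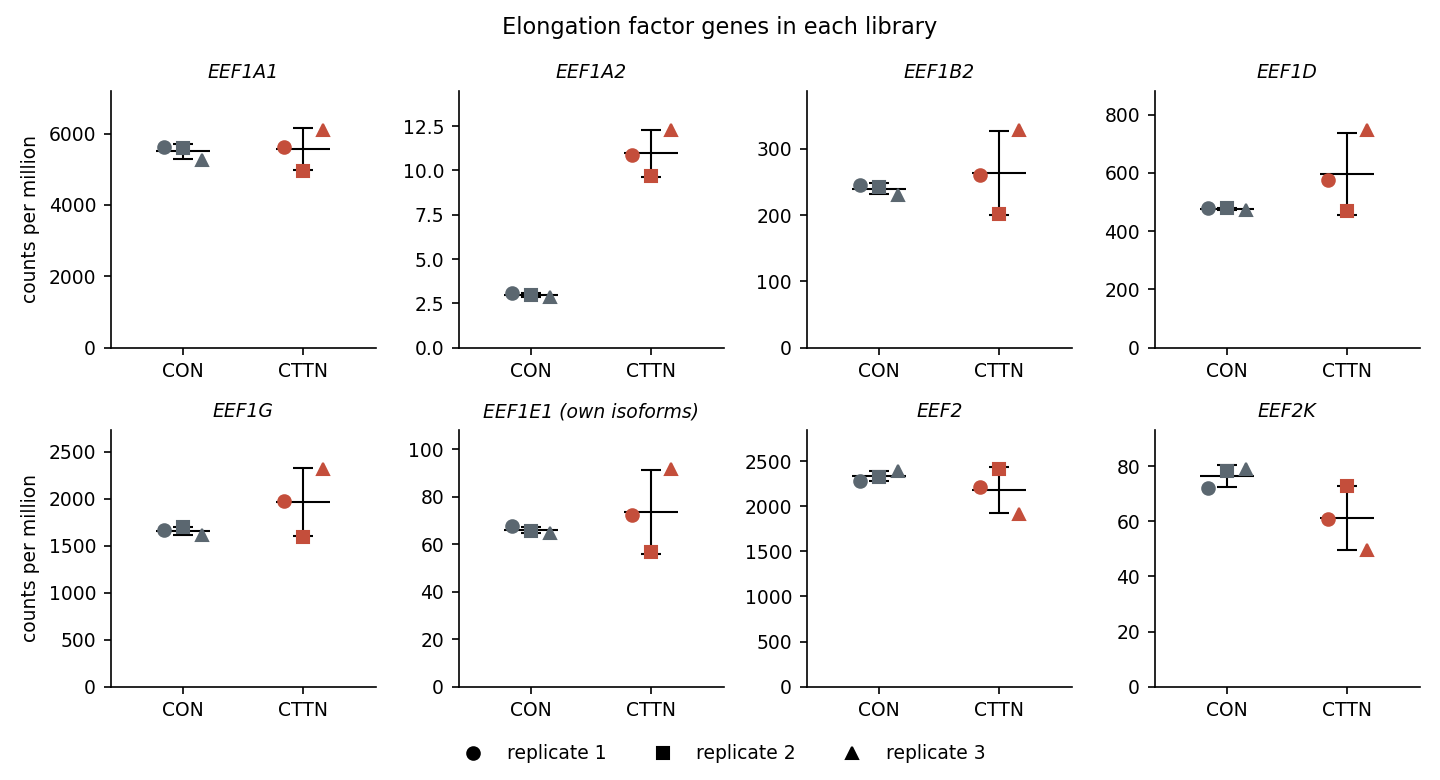
CPM of each elongation factor gene (y axes, linear from 0, 1 scale per gene) in the 3 CON and 3 CTTN libraries; symbols give the replicate, horizontal lines the mean and bars the SD. EEF1A2 is the gene whose groups stand apart, at 2.84 to 3.08 in CON and 9.68 to 12.3 in CTTN, while for the other genes CTTN 2 lies near CON or on the other side of it from CTTN 3.

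EEF1A2 nevertheless remained a small part of the eEF1A mRNA. On the FPKM scale, which divides by transcript length and allows genes to be compared, EEF1A1 was at 2581, 2562 and 2456 in CON and at 2595, 2296 and 2778 in CTTN. EEF1A2 was at 1.71, 1.75 and 1.65 in CON and at 6.52, 5.55 and 7.9 in CTTN. The share of EEF1A2 in the summed FPKM of both paralogs was 0.066%, 0.068% and 0.067% in CON and 0.25%, 0.24% and 0.28% in CTTN. EEF1A1 thus exceeded EEF1A2 by 1489-fold on average in CON and by 388-fold in CTTN. By mean FPKM, EEF1A1 held rank 15 and EEF1A2 rank 10864 of 23867 gene rows with a level above 0 in CON, and in CTTN EEF1A2 held rank 7831 of 23710.

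The assembled EEF1A2 transcripts with the highest mean levels, 2 in number, were both higher in CTTN. Another, ENST00000646335 of 465 bases, was at 0.333 FPKM in CTTN 2, 6% of the gene's FPKM there, and below 0.001 in the other 5 libraries. The transcript of 2014 bases, ENST00000217182, was at 1.7, 0.946 and 0.686 FPKM in CON and 4.73, 3.65 and 5.95 in CTTN. The transcript of 1586 bases, ENST00000298049, was at 0.000321, 0.658 and 0.954 FPKM in CON and 1.66, 1.27 and 1.89 in CTTN. For neither transcript did the groups overlap, but both belong to the gene on which the group was selected. The share of all isoforms without overlap was not computed. The split between them varied widely among the control libraries, where the longer one took 99.4%, 54.1% and 41.6% of the gene's FPKM, and less among CTTN libraries, at 72.5%, 65.8% and 75.3%. These are estimates from 109 to 126 fragments per control library. Over all 58051 isoforms tested, edgeR called none at an adjusted p under 0.05 and 3629 at an unadjusted p under 0.05, so isoform levels are given as descriptions. The same test on simulated isoform counts with known changes called none of them either, so this count of 0 does not bear on whether isoform levels changed.

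EEF1A1, the main carrier of aminoacyl-tRNA (chr6:73515750-73521032), did not pass the test. It stood at 5634, 5596 and 5270 CPM in CON and 5622, 4947 and 6106 in CTTN, so the control values lay inside the range of the CTTN values. The log2 fold change was 0.02 ± 0.10 (adjusted p = 0.926, edgeR). It was 0.09 without CTTN 2, -0.06 without CTTN 3 and -0.12 with the length trend removed (adjusted p = 0.0965), so its sign depended on the library and scaling used. Of its FPKM, 78.9% in CON and 79.1% in CTTN came from ENST00000331523 and 19.8% and 19.7% from ENST00000309268.

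**Figure D2:**
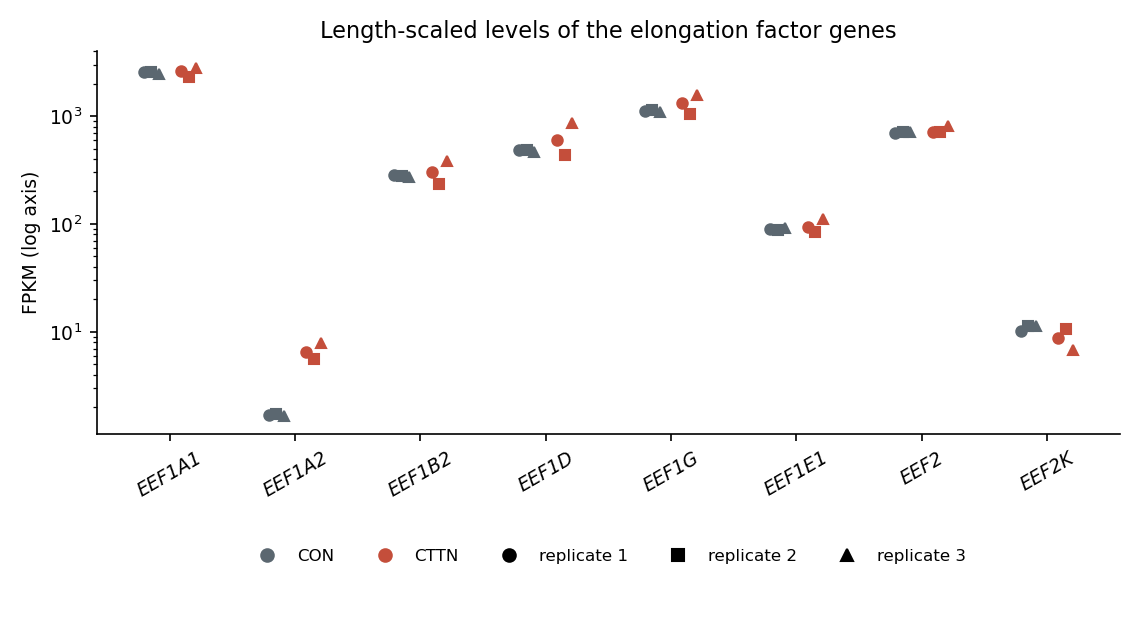
FPKM of the 8 genes on a log axis, with CON in grey and CTTN in red and 1 symbol per library; EEF1E1 is given by its own isoforms. The control levels run from 1.7 for EEF1A2 to 2533 for EEF1A1, and in CTTN the points of EEF1A2 reach those of EEF2K.

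The genes of the eEF1B complex and its neighbours were ordered by level in the same way in every control library. Mean FPKM in CON was 2533 ± 67.4 (SD, n = 3) for EEF1A1, 1110 ± 27.3 for EEF1G, 709 ± 11.9 for EEF2, 476 ± 9.25 for EEF1D, 278 ± 7.61 for EEF1B2, 89.8 ± 2.35 for EEF1E1 by its own isoforms, 11 ± 0.74 for EEF2K and 1.7 ± 0.0501 for EEF1A2, and no pair of neighbours in this order overlapped between libraries. In CTTN the order held for the means, but EEF1D, at 438 to 853 FPKM, overlapped EEF2 at 706 to 808, and EEF2K, at 6.86 to 10.7, overlapped EEF1A2 at 5.55 to 7.9. The FPKM of EEF2 in CTTN 3 included 172 from a 352-base transcript, ENST00000600794, that was listed at 0 or below 0.001 FPKM in the other 5 libraries, and its gene-level CPM did not rise there. FPKM summed over all genes also differed between libraries, so differences between groups are given on the count scale.

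The 3 subunit genes of eEF1B, the complex that exchanges GDP for GTP on eEF1A, were higher in CTTN 1 and CTTN 3 than in CON but not in CTTN 2. EEF1B2, the gene of the catalytic alpha subunit (chr2:206159609-206162928), was at 246, 243 and 231 CPM in CON and 260, 202 and 329 in CTTN, in a row that also lists 2 small RNA genes. EEF1D, which encodes the other exchange subunit, was at 480, 478 and 471 CPM in CON and 576, 469 and 748 in CTTN. EEF1G, the structural gamma subunit (chr11:62559596-62573891), was at 1664, 1701 and 1611 CPM in CON and 1973, 1594 and 2320 in CTTN, in a row that also holds TUT1 and AP002990.1 and in which EEF1G isoforms made up 98.1% of the fragments. In all 3 genes CTTN 3 was the highest library and CTTN 2 the lowest, with the controls between CTTN 2 and CTTN 1. The log2 fold changes were 0.14 ± 0.17 for EEF1B2 (adjusted p = 0.575), 0.33 ± 0.16 for EEF1D (adjusted p = 0.206) and 0.24 ± 0.14 for EEF1G (adjusted p = 0.251), and none passed the edgeR test.

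These 3 genes have short main transcripts of 880, 1249 and 1523 bases, so their ratios are given beside the medians of genes of like length. The cause of their ratios was not tested. In CTTN 1 the log2 ratios to CON were 0.12 for EEF1B2, 0.27 for EEF1D and 0.25 for EEF1G, beside medians of 0.14 and 0.17 for genes up to 1000 bases and from there to 2000. In CTTN 3 they were 0.46, 0.65 and 0.48, beside medians of 0.33 in both length classes. In CTTN 2 they were -0.25, -0.02 and -0.06, beside medians of 0.01. With the trend removed, the log2 fold changes were -0.15 for EEF1B2 (adjusted p = 0.104), 0.06 for EEF1D (adjusted p = 0.476) and 0.03 for EEF1G (adjusted p = 0.745), so that EEF1B2 changed sign.

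**Figure D3:**
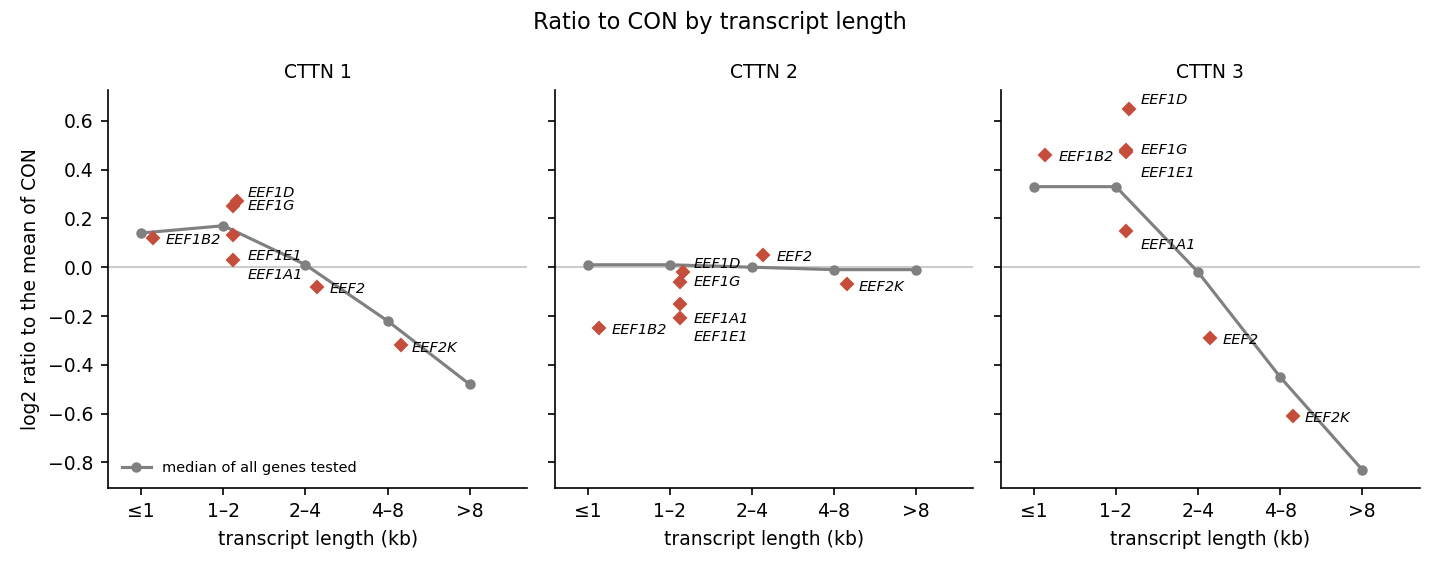
Median log2 ratio to the mean of CON over all tested genes in 5 classes of main transcript length (grey line, x axis in kb), with the elongation factor genes other than EEF1A2 as red diamonds, in each CTTN library. The line falls from 0.33 to -0.83 in CTTN 3 and from 0.17 to -0.48 in CTTN 1 and is flat in CTTN 2. EEF1B2, EEF1D and EEF1G lie above 0 and EEF2K below 0 in CTTN 1 and CTTN 3.

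EEF1E1 encodes an eEF1-related protein (AIMP3) that sits in the aminoacyl-tRNA synthetase complex. Its row merges it with TXNDC5, BLOC1S5 and 2 read-through genes, and its own isoforms held 13.5% of the row's fragments. The row was at 522, 528 and 520 CPM in CON and 514, 477 and 524 in CTTN, with a log2 fold change of -0.05 ± 0.08 (adjusted p = 0.649, edgeR). By its own isoforms EEF1E1 was at 67.6, 65.4 and 64.9 CPM in CON and 72.1, 56.8 and 91.8 in CTTN. This gave a log2 fold change of 0.15 ± 0.16 (adjusted p = 0.529, edgeR), with CTTN 3 highest and CTTN 2 lowest as in the eEF1B subunit genes.

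EEF2, the translocation factor (chr19:3976056-3985463), was at 2278, 2322 and 2390 CPM in CON and 2207, 2415 and 1911 in CTTN. CTTN 2 was the highest of all libraries and CTTN 3 the lowest, the reverse of the eEF1B subunit genes. Its log2 fold change was -0.10 ± 0.10 (adjusted p = 0.52, edgeR), and -0.04 with the length trend removed. On both FPKM scales it was 0.06, and the cause of this change of sign was not tested.

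EEF2K, the kinase that inhibits eEF2 (chr16:22206278-22288738), was at 72.0, 78.4 and 79.1 CPM in CON and 60.8, 72.8 and 49.7 in CTTN. CTTN 1 and CTTN 3 lay below every control library, and CTTN 2 lay within the control range. The log2 fold change was -0.32 ± 0.14 (adjusted p = 0.171, edgeR). Its main transcript is 7224 bases long, the longest of the 8 genes. The ratios to CON were -0.32, -0.07 and -0.61 in CTTN 1, 2 and 3, beside medians of -0.22, -0.01 and -0.45 for genes above 4000 and up to 8000 bases. With the trend removed the log2 fold change was 0.03 (adjusted p = 0.773).

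In all, 0 of the 7 tested elongation factor genes passed the test with all libraries, where 2.43% of all genes rose and 2.03% fell, and 0 of 7 had an unadjusted p under 0.05 by edgeR, beside 30.2% of all genes. DESeq2 called 0 of the 7 after adjustment, beside 14.4% of all genes, and 1, EEF2K, at an unadjusted p under 0.05, beside 32%. Their median log2 fold change was 0.02, and that of all genes tested was 0.01. Without CTTN 2, EEF1B2 (0.29, adjusted p = 0.0479), EEF1D (0.47, adjusted p = 0.00876) and EEF1G (0.36, adjusted p = 0.0116) rose and EEF2K (-0.48, adjusted p = 0.0072) fell by the same edgeR test, among 22.9% of all genes that rose and 24.2% that fell. Without CTTN 3, 0 of 7 passed and 0 had an unadjusted p under 0.05, beside 4.56% of all genes that rose, 3.99% that fell and 27.4% with an unadjusted p under 0.05. With the length trend removed, 0 of 7 passed and 2, EEF1A1 and EEF1B2, had an unadjusted p under 0.05 with lower values in CTTN, beside 8.66% of all genes that rose, 7.38% that fell and 34.7% with an unadjusted p under 0.05.

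**Figure D4:**
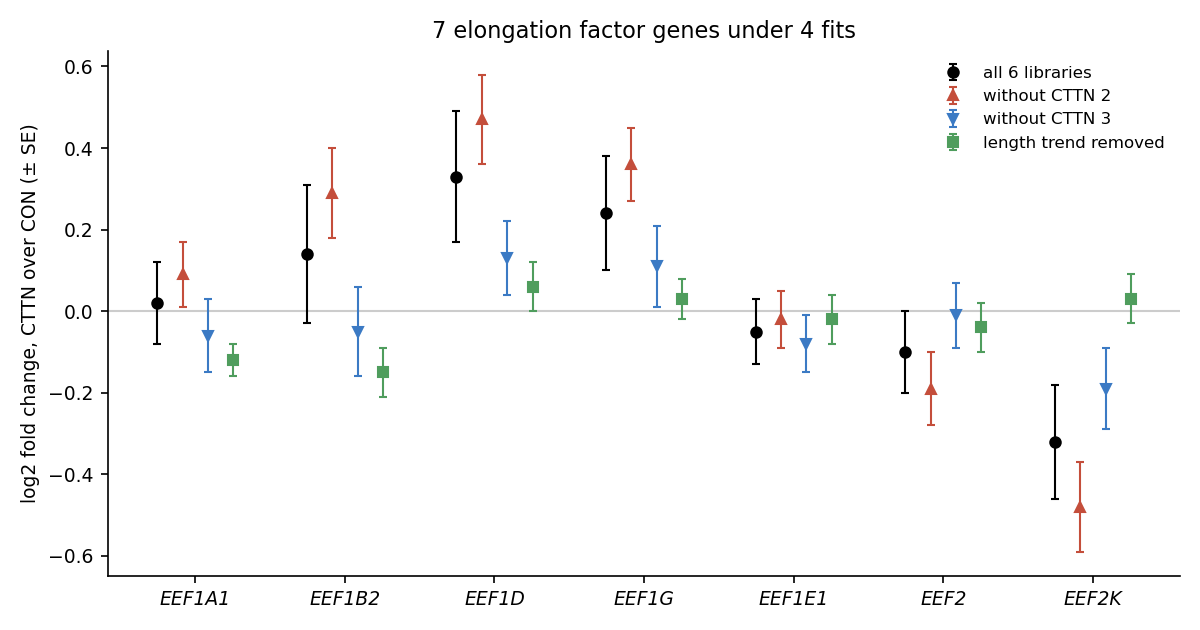
Log2 fold change of CTTN over CON (points) with its SE (bars) for the 7 tested genes under 4 fits. EEF1D moves from 0.33 with all libraries to 0.47 without CTTN 2, 0.13 without CTTN 3 and 0.06 with the length trend removed, and EEF2K from -0.32 to -0.48, -0.19 and 0.03.

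Ratios between members within a library avoid the scaling between libraries but still carry the length trend. EEF1B2 over EEF1G was 0.255, 0.245 and 0.25 on the FPKM scale in CON and 0.231, 0.223 and 0.247 in CTTN, and EEF1D over EEF1G was 0.429, 0.426 and 0.431 in CON and 0.451, 0.417 and 0.548 in CTTN. The summed eEF1A over the summed eEF1B subunits was 1.37, 1.35 and 1.35 in CON and 1.17, 1.34 and 0.997 in CTTN. In the last ratio CTTN 2 lay just below the controls and CTTN 3 departed most. With the fitted length trend divided out of each member, the last ratio was 1.34, 1.32 and 1.31 in CON and 1.2, 1.3 and 1.11 in CTTN. EEF1B2 over EEF1G was then 0.257, 0.249 and 0.257 in CON and 0.228, 0.227 and 0.227 in CTTN, and EEF1D over EEF1G was 0.433, 0.432 and 0.438 against 0.445, 0.422 and 0.522. These ratios were not tested.

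The start sites of several members share a feature that did not enter their choice. mRNAs of the translation machinery often begin with a run of C and T bases at the cap, the terminal oligopyrimidine tract through which mTOR signalling regulates their translation. The 60 bases from 40 before to 20 after the annotated start are shown for the members that show how this feature differs, from RefSeq GRCh38.p14 and on the strand of the gene, with the longest unbroken run of C and T that reaches within 10 bases of the start in capitals.
EEF1A1: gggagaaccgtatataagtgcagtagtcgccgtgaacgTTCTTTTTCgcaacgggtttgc
EEF2: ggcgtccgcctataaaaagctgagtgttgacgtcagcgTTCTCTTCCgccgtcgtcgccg
EEF1B2: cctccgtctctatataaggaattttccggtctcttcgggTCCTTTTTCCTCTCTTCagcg
EEF1G: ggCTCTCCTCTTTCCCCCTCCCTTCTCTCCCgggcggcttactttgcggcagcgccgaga
EEF2K: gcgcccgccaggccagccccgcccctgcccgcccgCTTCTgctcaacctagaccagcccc
The windows lie at chr6:73521013-73521072 for EEF1A1, chr19:3985444-3985503 for EEF2, chr2:206159855-206159914 for EEF1B2, chr11:62573872-62573931 for EEF1G and chr16:22206238-22206297 for EEF2K. The run was 9 bases long in EEF1A1 and EEF2 and 17 in EEF1B2, and it held the annotated start in each. Of 35116 promoter entries, 11.2% had a run of at least 9 bases and 1.35% one of at least 17. In EEF1G the run of 29 bases had its last base 10 bases before the annotated start, a length that 0.151% of entries reached, and in EEF2K the longest run was 5 bases, a length that 48.4% of entries reached. The other annotated start of EEF1B2 and that of EEF1E1 had runs of 4 bases, which 67.6% of entries reached. The promoter table matched 6 of the 8 genes, without EEF1A2 and EEF1D. A run of letters is a description of the window and not a measured site of regulation.

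Among the 6 lysine methyltransferase genes that act on eEF1A and eEF2, EEF2KMT, the enzyme that methylates eEF2, rose and the other 5 did not pass. EEF2KMT was at 15.9, 17.3 and 16.8 CPM in CON and 22.9, 21 and 25.6 in CTTN, and the groups did not overlap, beside 19.4% of all genes with CTTN above CON. Its log2 fold change was 0.47 ± 0.10 (adjusted p = 0.049, edgeR), and with 1 library left out in turn the adjusted p ran from 0.00341 to 0.21 and was under 0.05 in 2 of 6 fits. With the length trend removed it was 0.0127, on the log2(FPKM + 1) scale it was 0.215, and on isoform counts summed by gene name it was 0.0589. EEF1AKMT4, which methylates eEF1A, had a log2 fold change of 0.49 ± 0.18 (adjusted p = 0.135), and 0.32 with the length trend removed, in a row shared with ECE2. EEF1AKMT3 and the mitochondrial exchange factor gene TSFM shared 1 row, which is counted in both of their lists and had a log2 fold change of 0.17 ± 0.16, and 0.07 with the length trend removed. The median log2 fold change of this list was 0.16, beside 0.01 for all genes tested, where 2.43% rose and 2.03% fell.

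The other enzymes that modify elongation factors did not pass edgeR's test. For each list without a passing gene, the count at an unadjusted p under 0.05 and the count by DESeq2 after adjustment are given beside it, and are to be read against 30.2% and 14.4% of all genes. Of the 7 genes for diphthamide, the modified histidine of eEF2 that diphtheria toxin attacks, 0 passed (1 unadjusted, 0 by DESeq2), and the median log2 fold change was 0.07, and 0 with the length trend removed. DPH1, in a row with OVCA2, and DPH2 had the highest mean levels at 62.9 and 25 FPKM, with log2 fold changes of 0.26 ± 0.11 and 0.05 ± 0.08, and with the length trend removed 0 and 0.01. Of the 5 genes of eIF5A and its hypusine modification, 0 passed (2 unadjusted, 1 by DESeq2), and the median was 0.24, and 0.07 with the length trend removed. EIF5A, which helps the ribosome through proline-rich stretches, was at 648 FPKM on average with a log2 fold change of 0.24 ± 0.14, and DHPS, which starts the hypusine modification, was at 53.6 FPKM with 0.31 ± 0.12. These were 0.02 and 0.07 with the length trend removed.

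GTPases related to eEF1A, listed with their partners PELO and SECISBP2, and the mitochondrial elongation factors gave no passing gene with all libraries. Of 8 related genes, 7 were tested and 0 passed (2 unadjusted, 1 by DESeq2), with a median of -0.01, and GSPT2 was too low to test. After removal of the length trend the median was 0.01. The row that holds PELO, a ribosome rescue factor, together with ITGA1 and AC022133.1 then rose (0.42, edgeR adjusted p = 0.0119), beside 8.66% of all genes. This rise cannot be assigned to PELO alone. GSPT1, the termination factor eRF3a, was at 120 FPKM and HBS1L, a ribosome rescue factor, at 42.9, with log2 fold changes of 0 ± 0.07 and -0.12 ± 0.08, and -0.13 and -0.12 with the length trend removed. Of the 5 mitochondrial genes 0 passed (0 unadjusted, 0 by DESeq2), with a median of 0.09, and 0.07 with the length trend removed. TUFM, the mitochondrial counterpart of eEF1A, was at 564, 554 and 572 CPM in CON and 681, 566 and 815 in CTTN, so that again CTTN 2 was at the control level and CTTN 3 was highest. TUFM had a log2 fold change of 0.29 ± 0.13 (adjusted p = 0.188, edgeR), and 0.17 (adjusted p = 0.173) with the length trend removed. GFM1, the counterpart of eEF2, was at 61.2 FPKM with a log2 fold change of -0.22 ± 0.12, and -0.11 with the length trend removed.

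The genes of initiation, termination and recycling did not pass with all libraries either. Of 38 initiation factor genes 0 passed (7 unadjusted, 1 by DESeq2), with a median log2 fold change of 0.13. After removal of the length trend the median was 0.05, and EIF1AX rose (0.40, edgeR adjusted p = 0.0482) and EIF4E2 fell (-0.32, adjusted p = 0.0376), beside 8.66% and 7.38% of all genes. With all libraries EIF1AX and EIF4E2 had log2 fold changes of 0.20 ± 0.08 and -0.07 ± 0.09. The trend was taken at lengths of 4427 and 797 bases, so both calls depend on the length assigned to the row. EIF3H, an eIF3 subunit, was at 1052 FPKM with a log2 fold change of 0.16 ± 0.10, and EIF1, which monitors start codon choice, was at 714 FPKM with 0.42 ± 0.16. These were -0.08 and 0.14 with the length trend removed, so that EIF3H changed sign. Without CTTN 2, 18 initiation factor genes rose and 6 fell, beside 22.9% and 24.2% of all genes. Without CTTN 3, 0 rose and 0 fell (6 unadjusted, beside 27.4% of all genes). Of the 5 termination and recycling genes 0 passed (0 unadjusted, 0 by DESeq2), with a median of 0.03 with and without the length trend. MCTS1, a recycling factor, was at 74.8 FPKM with a log2 fold change of 0.32 ± 0.19, and ETF1, the release factor eRF1, was at 60.7 with 0.06 ± 0.07. The values were 0.03 and 0.19 with the length trend removed.

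In the aminoacyl-tRNA synthetase complex, which holds the EEF1E1 protein, EPRS fell and the other 10 genes did not pass, beside 2.03% of all genes that fell. EPRS, the glutamyl-prolyl-tRNA synthetase, was at 368, 401 and 369 CPM in CON and 280, 296 and 241 in CTTN, with no overlap, beside 19.4% of all genes with CTTN below CON. Its log2 fold change was -0.48 ± 0.10 (adjusted p = 0.0476, edgeR), and the adjusted p ran from 0.00295 to 0.226 with 1 library left out, under 0.05 in 2 of 6 fits. It was -0.25 (adjusted p = 0.031) with the length trend removed and -0.22 (adjusted p = 0.263) on the log2(FPKM + 1) scale, and the adjusted p was 0.0589 on isoform counts summed by gene name. With that trend removed MARS, the methionyl-tRNA synthetase, fell too (-0.20, edgeR adjusted p = 0.0248), so that 2 of the 11 genes fell, beside 7.38% of all genes. The list's median was 0, and 0.02 with the trend removed.

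Of 12 genes that regulate eEF2 kinase, 0 passed (3 unadjusted, 2 by DESeq2, beside 30.2% and 14.4% of all genes), with a median log2 fold change of -0.04, and 0.03 with the length trend removed. CALM2, which encodes the calmodulin that activates the kinase, was at 513 FPKM with a log2 fold change of 0.39 ± 0.16, and 0.13 with the length trend removed, in a row that includes 2 other genes. The 2 genes called by DESeq2 were RPS6KA1 and PRKAA1, named after their values were seen. RPS6KA1, the ERK-activated kinase RSK1 that inhibits eEF2 kinase, was at 65.2, 64 and 66.9 CPM in CON and 83.7, 81.8 and 76.9 in CTTN, with a log2 fold change of 0.31 ± 0.08 (adjusted p = 0.0683, edgeR). PRKAA1, a catalytic subunit of AMP-activated kinase, which activates eEF2 kinase, was at 198, 198 and 196 CPM in CON and 125, 163 and 102 in CTTN, with a log2 fold change of -0.60 ± 0.16 (adjusted p = 0.0797, edgeR). In neither gene did the groups overlap, which held for 19.4% of all genes in each of the 2 directions. With the length trend removed, RPS6KA1 rose (adjusted p = 0.00428) and PRKAA1 fell (adjusted p = 0.0095), beside 8.66% and 7.38% of all genes. Without CTTN 2, 3 of the 12 genes rose and 4 fell, beside 22.9% and 24.2% of all genes. Those that fell were PRKAA1, MTOR, RPTOR and RPS6KB1, the last in a merged row. With all libraries MTOR, RPTOR and RPS6KB1 were at -0.40, -0.25 and -0.22, and with the length trend removed at -0.05, 0.03 and 0.04.

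The rows within 500 kb of EEF1A2 were examined to see how far its change was shared along the chromosome. Of 56 other rows, 21 were expressed highly enough to test, with a median log2 fold change of 0.06. STMN3, a stathmin family gene 140 kb away, rose from 5.54, 5.67 and 5.47 CPM in CON to 9.21, 7.37 and 10.9 in CTTN, and the other 20 did not pass, beside 2.43% of all genes that rose. The log2 fold change of STMN3 was 0.72 ± 0.15 (adjusted p = 0.049, edgeR), under 0.05 in 2 of 6 fits with 1 library left out, where the adjusted p ran from 0.00178 to 0.214, and it was 0.63 (adjusted p = 0.0147) with the length trend removed. The adjusted p was 0.142 and 0.138 on the log2(FPKM + 1) and log2(FPKM + 0.1) scales and 0.0597 on isoform counts summed by gene name. UCKL1-AS1, an antisense RNA gene 441 kb away with a mean of 0.302 FPKM, had the change of largest size among the 21 rows with all libraries, and in the other direction, at -0.88 ± 0.25 (adjusted p = 0.0873, edgeR, and 0.0465 without CTTN 2). Whether counting used the strand is not given in the sources used here, so its reads may not be separable from those of UCKL1. The tested genes nearest to EEF1A2, PPDPF at 21 kb and PTK6 at 29 kb, had log2 fold changes of 0.28 ± 0.14 (adjusted p = 0.209) and 0.38 ± 0.11 (adjusted p = 0.0927). With the length trend removed PTK6 rose as well, at 0.40 (adjusted p = 0.0383), and PPDPF was at 0 (adjusted p = 0.991). STMN3 and PTK6 were then the 2 of 21 rows that rose, beside 8.66% of all genes. On the other side, the nearest tested gene, ARFGAP1 at 198 kb, had 0.08 ± 0.08 (adjusted p = 0.471), and 0.16 (adjusted p = 0.166) with the length trend removed.

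**Figure D5:**
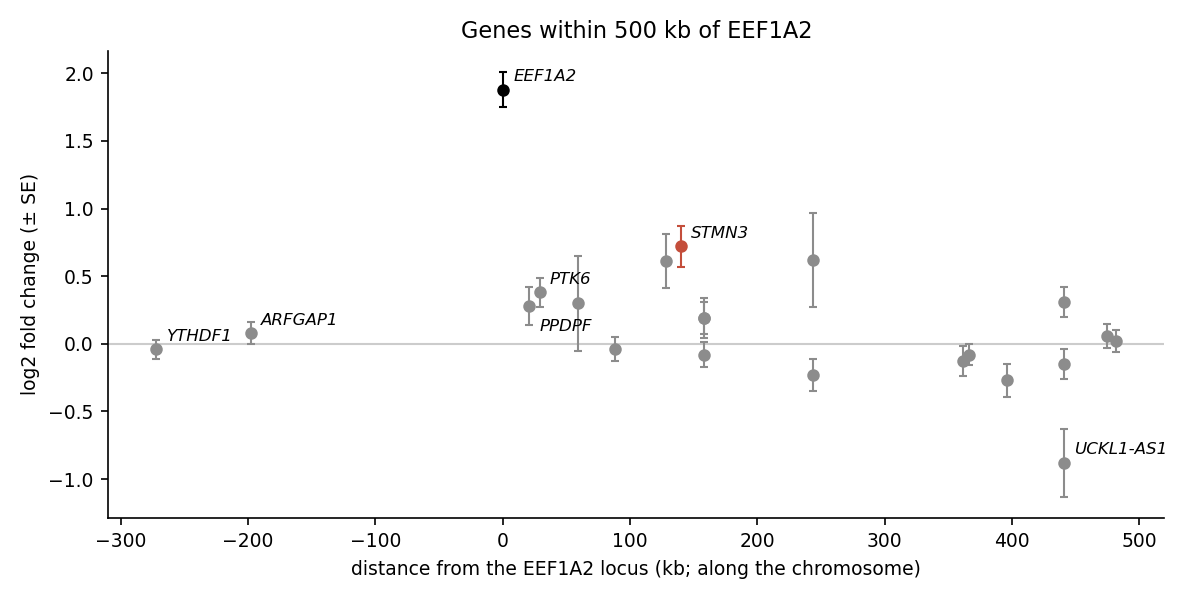
Log2 fold change (points) with its SE (bars) of the 21 tested rows within 500 kb of EEF1A2 against their distance along the chromosome in kb, with EEF1A2 in black and the row that passed in red. EEF1A2 stands at 1.88 and STMN3 at 0.72, while the nearest rows, PPDPF and PTK6, stand at 0.28 and 0.38.

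Processed pseudogenes can take reads of their parent genes, so the 63 pseudogene rows of the members were read as well. Of these, 11 were tested and 0 passed by edgeR (0 unadjusted, 0 by DESeq2), with a median log2 fold change of -0.11, and -0.35 with the length trend removed, and 4 had a mean of at least 1 FPKM. EEF1A1P5 was the highest at 14.8, 11.1 and 12.5 FPKM in CON and 10.2, 11.7 and 8.85 in CTTN, with a log2 fold change of -0.32 ± 0.14 (adjusted p = 0.173, edgeR), and -0.52 (adjusted p = 0.0943) with the length trend removed. EEF1A1P13 and EEF1A1P9 had means of 1.23 and 1.12 FPKM, with log2 fold changes of -0.29 ± 0.35 and -0.03 ± 0.37, and -0.53 and -0.29 with the length trend removed. Of the 1340 different 50-base stretches of EEF1A1P5, 85.1% also occurred in EEF1A1, so its level cannot be separated from that of EEF1A1 with certainty, and 0 occurred in EEF1A2. For EEF1A1P13 and EEF1A1P9 the shares in EEF1A1 were 32.8% and 17.5%, and 0 stretches occurred in EEF1A2.

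The genes whose CPM followed EEF1A2 most closely over the 6 libraries were CDC25B, CERS2, SRRM3, a merged row with ANXA8L1, and PRAME, with Pearson r of log2(CPM + 1) from 0.9975 to 0.9983. CDC25B, a phosphatase that activates cyclin-dependent kinases, was at 80.9, 81.9 and 81.3 FPKM in CON and 108, 102 and 109 in CTTN, and CERS2, a ceramide synthase, at 243, 244 and 251 against 362, 332 and 393. PRAME, a cancer-testis antigen gene, was at 1.37, 1.48 and 1.25 FPKM in CON and 3.83, 3.68 and 4.03 in CTTN, and SRRM3, a splicing regulator of neurons, at 2.99, 2.97 and 2.67 against 5.95, 5.12 and 6.95. The size of the change differed among them, at log2 fold changes of 0.35 for CDC25B, 0.52 for CERS2, 1 for SRRM3 and 1.5 for PRAME beside 1.88 for EEF1A2. With 6 libraries in 2 groups, genes that separate the groups tend to correlate in this way, and 403 of 14408 genes had r above 0.95.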

How the data were processed

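The authors prepared TruSeq stranded mRNA libraries by polyA capture and sequenced them on a NovaSeq6000, and the submitters' processing notes name bcl2fastq 2.20.0, Trimmomatic, STAR, Cufflinks and GRCh38, whereas the paper's methods name hg19 and another trimmer. The loci in the deposited tables matched RefSeq GRCh38.p14. The authors deposited estimated counts (expected counts) of fragments and FPKM values per gene and isoform from Cufflinks. Each count column had been divided by an internal scale, which was undone, after which 100% of the gene values under 2000 fragments were whole to within 0.02 fragments. The authors' cds and start-site group tables were not used.

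Gene counts were rounded, filtered with filterByExpr and tested with the quasi-likelihood test of edgeR 4.0.16 (R 4.3.3) with TMM scaling and Benjamini-Hochberg adjustment over all 14409 genes tested. SE was the absolute log2 fold change divided by the square root of F. limma 3.58.1 on log2(FPKM + 1) or log2(FPKM + 0.1) and DESeq2 1.42.0 were alternatives. The code was tested on simulated data. Depth was 34887079 to 41279658 fragments per library, so counting error was small for all members but EEF1A2, with 109 to 405 fragments.

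The main transcript of a gene row was its isoform with the highest mean FPKM, and its length was used for the whole row. For the fit with the length trend removed, a loess curve (span 0.3) per library was entered as an offset. The curve was fitted to log2 CPM, less the mean of the gene over the libraries, on log2 length. This fit, and that on isoform counts summed by gene name, which splits merged rows, were added after seeing the data. Same-numbered libraries did not deviate together, with correlations across genes of 0.04, 0.16 and -0.283, so the numbers were not taken to pair them. The deviations of CTTN 2 and CTTN 3 from their group mean had a correlation across genes of -0.951. Deviations from a mean of 3 libraries cancel out, so a negative value arises in part by construction.

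The members and lists were chosen with earlier results of these data known. All 8 members were named. For each list, up to 4 passing genes of largest change were named, or else the 2 of highest mean FPKM, with the 5 genes most like EEF1A2 and the 3 highest pseudogenes. Other genes named beside a list, and EEF1AKMT4, TSFM, GSPT2, PPDPF, PTK6, ARFGAP1 and UCKL1-AS1, were chosen after their values were seen. Some items are not reported here. The p-values measure the spread between these libraries.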

Additional observations from a re-analysis of the deposited data

How the results depend on the processing

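The count of genes changed depended on the fit. It was 643 with all libraries, 2074 by DESeq2, 185 and 180 by limma with pseudocounts of 1 and 0.1, 976 without the filter on low counts and 2311 with the length trend removed. Leaving out 1 library gave 15 to 6925 genes, the latter without CTTN 2, 1252 without CTTN 3 and 15 to 32 without CTTN 1 or a control library. The fit with replicate number as a block called 105 genes and 0 of the 7 tested members. No sample was shown to be paired by its number, and the control numbers identify no sample.

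Of the 7 members, 0 passed in 14 of 15 alternative fits and 4 passed without CTTN 2, which gives a range of 0 to 4 with 1 library left out. The log2 fold change of EEF1A1 was -0.02 without CON 3, -0.06 (range -0.06 to 0.09 with 1 library left out) without CTTN 3 and -0.12 with the length trend removed. That of EEF1B2 was -0.05 without CTTN 3 (range -0.05 to 0.29) and -0.15 with the length trend removed, EEF1E1 was at 0.15 by its own isoforms, EEF2 at 0.06 on both FPKM scales and EEF2K at 0.03 with the length trend removed. None of these values passed the test, and the cause was not tested. EEF1A2 stayed between 1.49 and 1.95 in 15 fits. The isoform count was 0 in all fits run, which says nothing of stability, since the test also made no calls on simulated isoform counts with known changes.

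A fit without every library whose column names no sample would have left no controls and was not run. Levels from counts per gene length were not run either. The gene table lists no length, and the lengths of main transcripts were not put to this use. Depth limits EEF1A2 most, with 109 to 126 fragments per control library, and above all the split between its isoforms. Merged rows and pseudogenes limit EEF1E1, EEF1G and EEF1A1.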
